A study of Rattus norvegicus with 4 samples.

Results

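Glycolysis splits glucose into pyruvate in a fixed chain of cytosolic enzymes, and lactate dehydrogenase turns pyruvate into lactate. Early neural progenitors divide fast and are known to draw heavily on glycolysis. When oxygen is short, the transcription factor HIF-1 is no longer hydroxylated by the prolyl hydroxylases of the Egln family, binds hypoxia response elements and raises glucose transporters, most glycolytic enzymes and factors such as Vegfa. The 38 genes described here cover glucose uptake, every step from glucose to lactate, kinases that switch off pyruvate dehydrogenase, and textbook hypoxia targets. They were taken as the probe sets (groups of short probes on the array that stand for 1 transcript) whose only gene symbol is a listed name. That gave 59 of 31099 probe sets, for 37 of the 38 genes.

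The arrays compare telencephalon, the front part of the embryonic forebrain, from wild-type rats and from rats homozygous for the Pax6 mutant allele (rSey2/rSey2), all Sprague-Dawley, at E11.5; the labels give no treatment. Pax6 is a transcription factor that patterns the forebrain and eye. There were 2 Affymetrix arrays per genotype, labelled as biological replicates, from RNA of pooled telencephalons; the design text names 13. The labels name no litters, so the p-values reflect only how far these 4 arrays scatter, which may be technical. In bulk tissue, fewer cells of a type and less RNA per cell cannot be told apart.

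Pax6 itself read 11.75 and 11.85 on the wild-type arrays and 11.78 and 11.63 on the mutant arrays on the log2 scale. The labels do not give the lesion, so this transcript does not check the genotypes. Progenitor genes of the telencephalon were bright on all 4 arrays, with Sox2 between 13.51 and 13.86, Lhx2 between 13.01 and 13.42 and Emx2 between 10.45 and 10.59. Fabp7, a lipid-binding protein of radial glia and their precursors, read 11.83 and 12.15 in wild type and 4.89 and 4.56 in the mutant. Erythroid transcripts were measured on all 4 arrays. The summed level of 16 erythroid markers, in linear units, was 79424 and 81101 in wild type and 91316 and 91470 in the mutant, and 14 of the 15 tested were higher in the mutant. The 18 endothelial markers summed to 6487 and 6574 in wild type and 7355 and 8058 in the mutant, with 16 of 18 higher. Of 10 macrophage markers, 9 were under the level taken as dim, Csf1r and Ptprc among them. The 13 mesenchyme markers summed to 9019 and 8867 in wild type and 7431 and 8630 in the mutant. Among the 12 tested, 7 were lower and 5 higher. Surface ectoderm markers had 3 lower and 4 higher of 9 tested, and lens and optic markers 1 lower and 4 higher of 5. Any part of these cells in the glycolysis values was not tested.

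Of the 59 probe sets, 44 were bright enough to test. They stand for 35 genes, each represented below by its brightest tested probe set. Another 9 were dim, and on 7 of them all 4 arrays gave an identical value, which holds no information on genotype. The remaining 6 are the manufacturer's control probe sets for Gapdh and hexokinase, described below without a test. Of the 38 genes, 3 had no tested probe set. These were Gapdh (control probe sets only), Pkm (its probe set also names a pseudogene) and Car9 (carbonic anhydrase 9, at 2.35 on every array).

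For most of these genes the measured difference between the genotypes was small, and Slc2a3, Pfkl and Slc2a1 had the largest differences. Those of Pfkl and Slc2a1 were 0.02 and -0.20 when mutant replicate 1 was left out. Of the 35 tested genes, 27 were lower and 8 higher in the mutant, where 49.1% of all 9840 tested genes were lower and 49.7% higher. The median difference, mutant minus wild type, was -0.09 on the log2 scale against 0 over all tested genes. These figures moved with the arrays: 21 genes were lower with a median of -0.042 when wild-type replicate 2 was left out, and 22 with -0.048 when mutant replicate 1 was. The median was -0.19 when either of the other arrays was left out. A difference under 0.2 in size was found for 25 of the 35. A value lower by at least 0.3 was found for 6 (background 4.5%): Slc2a3, Pfkl, Slc2a1, Pdk1, Aldoc and P4ha2. A value higher by at least 0.3 was found for 0 (background 5.47%). The count lower by at least 0.3 was 2 when mutant replicate 1 was left out (Slc2a3 and Ddit4) and 2 when wild-type replicate 2 was (Slc2a3 and Pdk1). It was 9 when wild-type replicate 1 was left out and 12 when mutant replicate 2 was, and the count higher was 1 or 2 in all 4 cases. The share of all tested genes is not given with 1 array left out. The 4.5% and 5.47% come from all 4 arrays and are no background for these counts.

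No gene of the set passed the test. In limma, with Benjamini-Hochberg adjustment over all tested probe sets, 0 of 35 had an adjusted p under 0.05, and the lowest adjusted p was 1. Over all 18625 tested probe sets 0 passed too (0%). Fabp7, at a difference of -7.26, had an adjusted p of 0.196 (limma), the lowest among the 9840 tested genes. Not passing therefore does not show that a gene is unchanged. At an unadjusted p under 0.05 there were 2 lower genes, Slc2a3 and Pdk1 (background 1.81%), and 0 higher ones (background 1.78%). With 2 arrays against 2, the smallest two-sided p of an exact permutation test is 0.333, and no such test was run. Both mutant arrays lay below both wild-type arrays for 12 of the 35 genes, where 12.1% of all tested genes did so. Both lay above for 1, where the background was 12.2%. For the other 22 genes the groups overlapped. The lower count was 21 when wild-type replicate 1 was left out and 23 when mutant replicate 2 was. The higher count was 3 in each of those cases, 6 when wild-type replicate 2 was left out and 10 when mutant replicate 1 was.

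**Figure D1:**
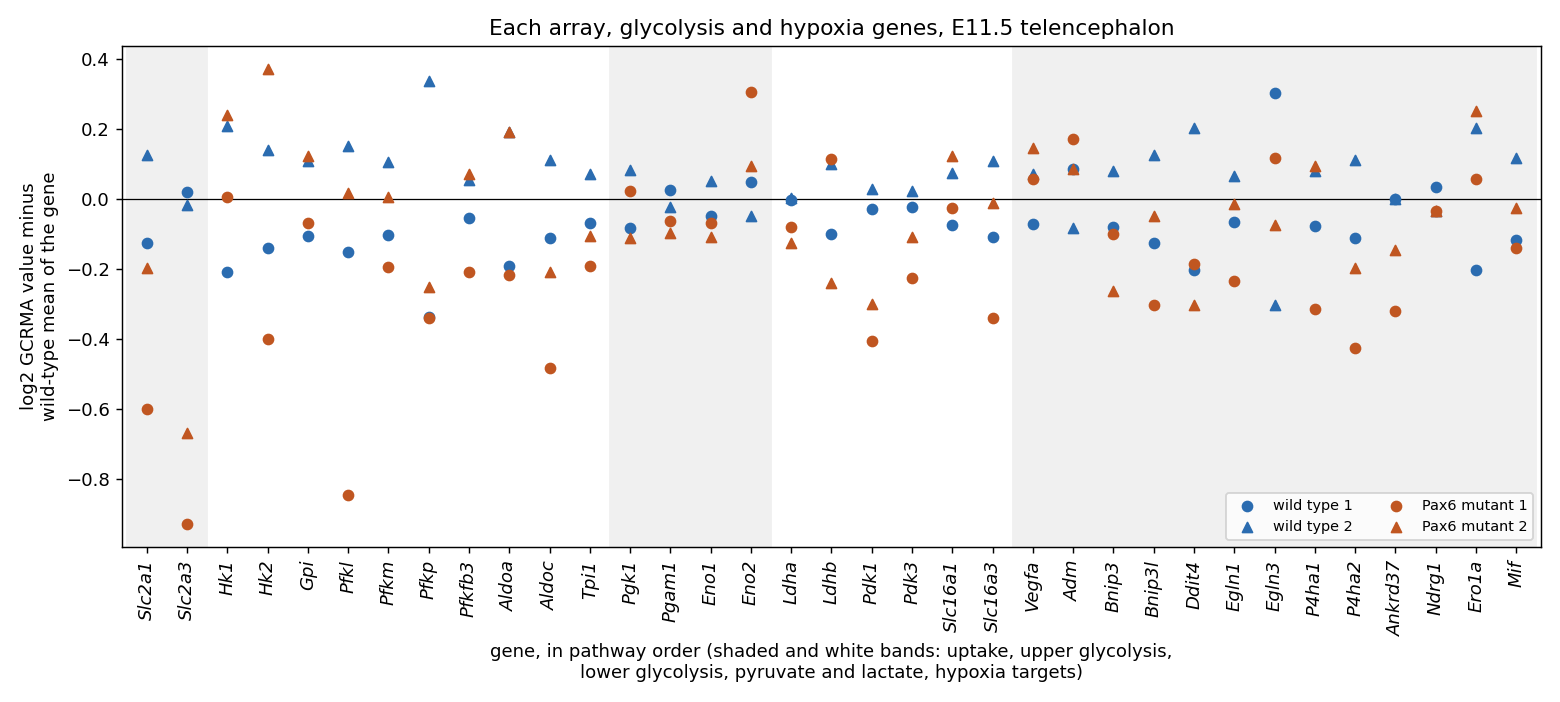
Value of each of the 4 arrays minus the gene's wild-type mean (log2 units) for the 35 tested genes in pathway order; blue is wild type, orange is Pax6 mutant, circles are replicate 1 and triangles replicate 2. The mutant arrays of Slc2a1 and Slc2a3 lie below both wild-type arrays, while those of Hk1, Hk2, Gpi and Aldoa overlap with them.

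Glucose enters neural cells through facilitative transporters. Slc2a3 encodes GLUT3, the high-affinity transporter of neurons and their precursors. Its brighter probe set read 11.04 and 11.01 in wild type and 10.10 and 10.36 in the mutant. Both mutant arrays were thus well below both wild-type arrays, with a gap of 0.65 between the groups. The means were 11.03 ± 0.03 and 10.23 ± 0.18 (SD, n = 2), a difference of -0.80 (SE 0.12, 95% interval -1.17 to -0.43), or 1.74-fold lower. The unadjusted p was 0.00569 and the adjusted p was 1 (limma). The second Slc2a3 probe set read 9.46 and 9.76 in wild type and 8.31 and 9.11 in the mutant. It was also lower on both mutant arrays, by -0.90 (SE 0.34), with mutant replicate 1 far below replicate 2. Without mutant replicate 1 this second difference was -0.50, and that of the brighter probe set was -0.67. Among the 9840 tested genes the difference of Slc2a3 ranked 51st from the most negative.

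Slc2a1 encodes GLUT1, the transporter of neuroepithelium, blood-brain barrier endothelium and red cells. It read 12.14 and 12.39 in wild type and 11.67 and 12.07 in the mutant. The mutant arrays were the lower ones, but the gap between the groups was 0.07, narrower than the spread within either genotype. The difference was -0.40 (SE 0.20, 95% interval -1.0 to 0.20), or 1.32-fold lower. Leaving out mutant replicate 1 gave -0.20, and leaving out mutant replicate 2 gave -0.60. Most erythroid and endothelial markers were higher in the mutant, and any part of those cells in the Slc2a1 values was not tested. Of the other glucose transporters, Slc2a4 (GLUT4) differed by -0.31 (SE 0.20), or by -0.067 when wild-type replicate 2 was left out. Slc2a13, a myo-inositol transporter of the same family, differed by 0.66 (SE 0.59), or by -0.086 when mutant replicate 2 was left out. Slc2a8 differed by 0.05, and Slc2a2 and Slc2a5 lay at the lowest value of the table on all arrays.

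Hexokinase traps glucose as glucose 6-phosphate. Hk2, the hypoxia-responsive form, read 8.63 and 8.91 in wild type and 8.37 and 9.14 in the mutant, so both mutant arrays enclosed the wild-type pair. The difference was -0.01 (SE 0.33), with an interval from -1.02 to 0.99 that spans about 1 log2 unit on either side. Hk1, the housekeeping form, read 8.38 and 8.80 against 8.59 and 8.83, a difference of 0.12 (SE 0.20). The 3 control probe sets for hexokinase differed by -0.02 at the 5′ part, 0.09 in the middle and 0.14 at the 3′ part. Gpi, which converts glucose 6-phosphate to fructose 6-phosphate, read 12.34 and 12.55 in wild type and 12.37 and 12.57 in the mutant. Its groups were interleaved, with a difference of 0.03 (SE 0.13).

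Phosphofructokinase is the committed and most regulated step, and its liver-type subunit Pfkl had the second largest negative difference after Slc2a3. It read 10.22 and 10.52 in wild type and 9.52 and 10.39 in the mutant. A single low array carried this: the groups overlapped, and the difference of -0.42 (SE 0.36) was 0.02 without mutant replicate 1. The muscle-type Pfkm differed by -0.09 (SE 0.13) on 1 probe set and by 0.08 (SE 0.26) on another. The platelet-type Pfkp differed by -0.30 (SE 0.27), with wild-type arrays at 7.52 and 8.19 and mutant arrays at 7.51 and 7.60. Here wild-type replicate 2 stood apart, and without it the difference was 0.04. Pfkfb3 makes fructose 2,6-bisphosphate, the activator of phosphofructokinase. Its brighter probe set differed by -0.07 (SE 0.14). The dimmer one read 6.34 and 6.88 in wild type and 5.14 and 6.49 in the mutant. Its difference of -0.80 (SE 0.58) was -0.12 without mutant replicate 1. The probe sets of Pfkfb3 therefore disagreed in size, and the groups overlapped on both.

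Aldolase cleaves the phosphorylated sugar into trioses. Aldoa, the ubiquitous form, read 13.30 and 13.68 in wild type and 13.27 and 13.68 in the mutant, differing by -0.01 (SE 0.23). Aldoc, the brain form, was a weak signal at 5.47 and 5.69 in wild type and 5.10 and 5.37 in the mutant. Both mutant arrays were lower by a gap of 0.10, and the difference of -0.35 (SE 0.15) was -0.25 with a pseudocount of 16 and -0.21 without mutant replicate 1. Tpi1, which interconverts the triose phosphates, read 14.05 and 14.19 against 13.93 and 14.01. It was lower on both mutant arrays, by -0.15 (SE 0.09). Along the upper pathway, from hexokinase to Tpi1, 8 of 10 genes were lower, with a median of -0.08. Both figures turned with 1 array: 3 of 10 were lower with a median of 0.044 when mutant replicate 1 was left out, and 4 of 10 with 0.025 when wild-type replicate 2 was. Both mutant arrays lay below both wild-type arrays for 2 of the 10, Aldoc and Tpi1, against 12.1% of all tested genes.

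Lower glycolysis, the part that yields ATP, had small differences. Its 4 tested genes had a median level of 14.49, against 11.35 for the uptake genes and a highest value of 16.13 on any array. Whether values this high understate a difference was not tested. The Gapdh control probe sets read 15.25 and 15.27 in wild type and 15.33 and 15.27 in the mutant at the 5′ part, a difference of 0.04. The middle part differed by 0.004 and the 3′ part by -0.004. A probe set shared by Gapdh and a Gapdh-like gene differed by -0.03. Pgk1, phosphoglycerate kinase, read 14.41 and 14.58 in wild type and 14.52 and 14.38 in the mutant, which overlap. Its difference was -0.04 (SE 0.11), and a second probe set of the type that can share probes with other transcripts differed by -0.11 (SE 0.08). Pgam1, phosphoglycerate mutase, read 14.57 and 14.52 against 14.48 and 14.44, a difference of -0.08 (SE 0.07, interval -0.30 to 0.14). Eno1, the ubiquitous enolase, read 14.71 and 14.81 against 14.69 and 14.65, a difference of -0.09 (SE 0.08, interval -0.33 to 0.15). Both mutant arrays of Pgam1 and Eno1 were the lower ones, but by gaps of 0.04 and 0.02.

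Eno2, the neuronal enolase, was the 1 gene with both mutant arrays above both wild-type arrays. It is a faint signal, at 4.64 and 4.55 in wild type and 4.90 and 4.69 in the mutant, and differed by 0.20 (SE 0.11). For the last step, pyruvate kinase, the Pkm probe set shared with a pseudogene read 14.57 and 14.63 in wild type and 14.49 and 14.59 in the mutant. It overlapped, with a difference of -0.07.

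**Figure D2:**
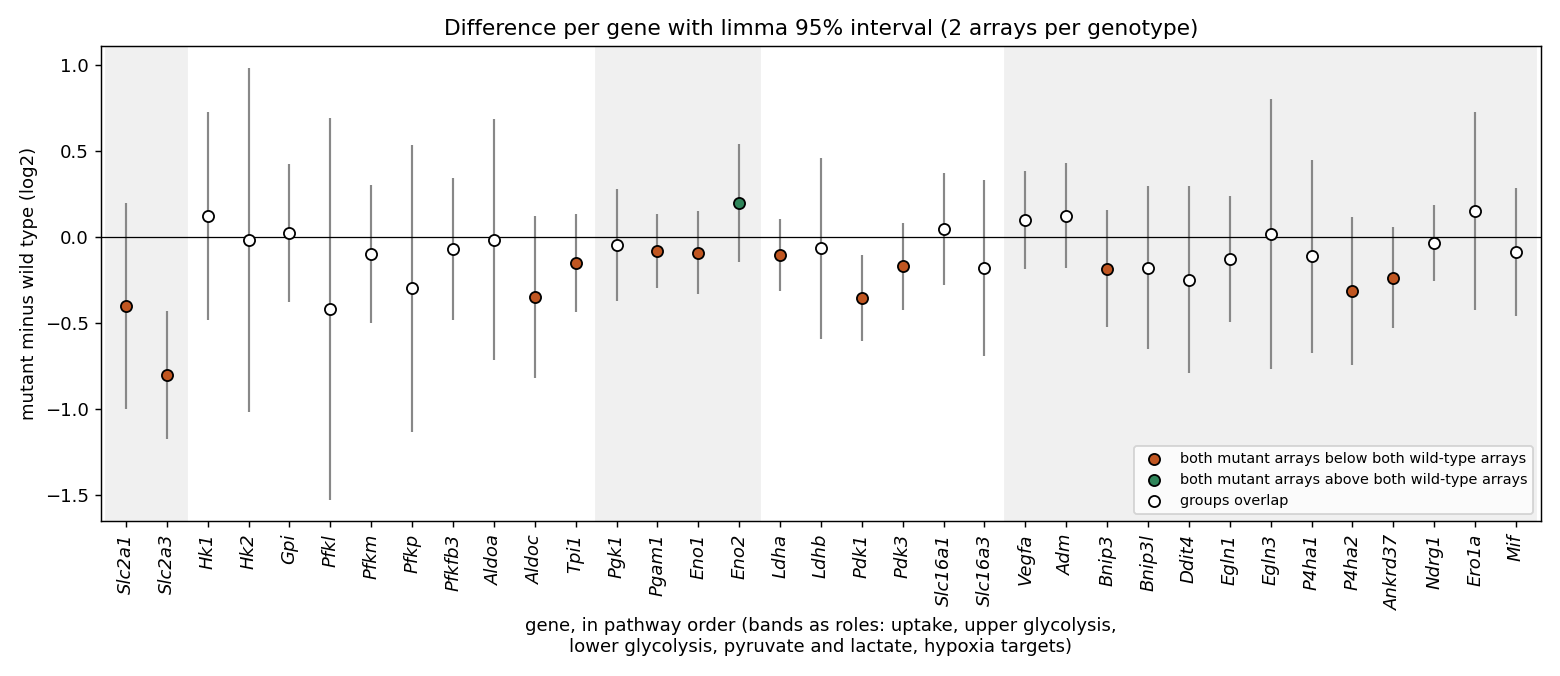
Difference between Pax6 mutant and wild type (log2 units) for the 35 tested genes in pathway order, with limma's 95% interval; orange points have both mutant arrays below both wild-type arrays, the green point (Eno2) both above, and white points overlap. The intervals of Slc2a3 and Pdk1 alone lie clear of 0, and those of Pgam1, Eno1 and Ldha are the narrow ones of the lower pathway and its exit.

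At the exit of the pathway, pyruvate becomes lactate or enters the mitochondrion. Ldha, the lactate dehydrogenase subunit raised by HIF-1, read 14.78 and 14.79 in wild type and 14.71 and 14.66 in the mutant. Both mutant arrays were lower, with a difference of -0.10 (SE 0.07, interval -0.31 to 0.11), or 1.07-fold. Ldhb, the subunit of oxidative tissues, read 11.35 and 11.54 against 11.56 and 11.21 and differed by -0.06 (SE 0.17). The monocarboxylate transporter Slc16a1 (MCT1) differed by 0.05 (SE 0.11) and the lactate exporter Slc16a3 (MCT4) by -0.18 (SE 0.17). The groups of both transporters overlapped.

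Pdk1 and Pdk3 encode kinases that switch off pyruvate dehydrogenase and so keep carbon in glycolysis. Pdk1, a HIF-1 target, read 10.00 and 10.05 in wild type and 9.62 and 9.73 in the mutant. The arrays of each genotype lay close together and the groups were 0.27 apart. The difference was -0.35 (SE 0.08, 95% interval -0.60 to -0.10), or 1.28-fold lower, with an unadjusted p of 0.0197 and an adjusted p of 1 (limma). A dimmer Pdk1 probe set read 8.23 and 8.38 in wild type and 7.99 and 8.32 in the mutant. It overlapped, with a difference of -0.15 (SE 0.16) that was 0.01 without mutant replicate 1. Pdk3 differed by -0.17 (SE 0.08) on its brighter probe set, at 10.05 and 10.09 against 9.84 and 9.96. Its other probe set gave -0.17 (SE 0.11), and both mutant arrays were the lower ones on each. Pdp1, the phosphatase that undoes this phosphorylation, was also lower, at 6.96 and 7.07 in wild type and 6.28 and 6.63 in the mutant. Its difference was -0.56 (SE 0.16, unadjusted p = 0.0345, adjusted p = 1 in limma).

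**Figure D3:**
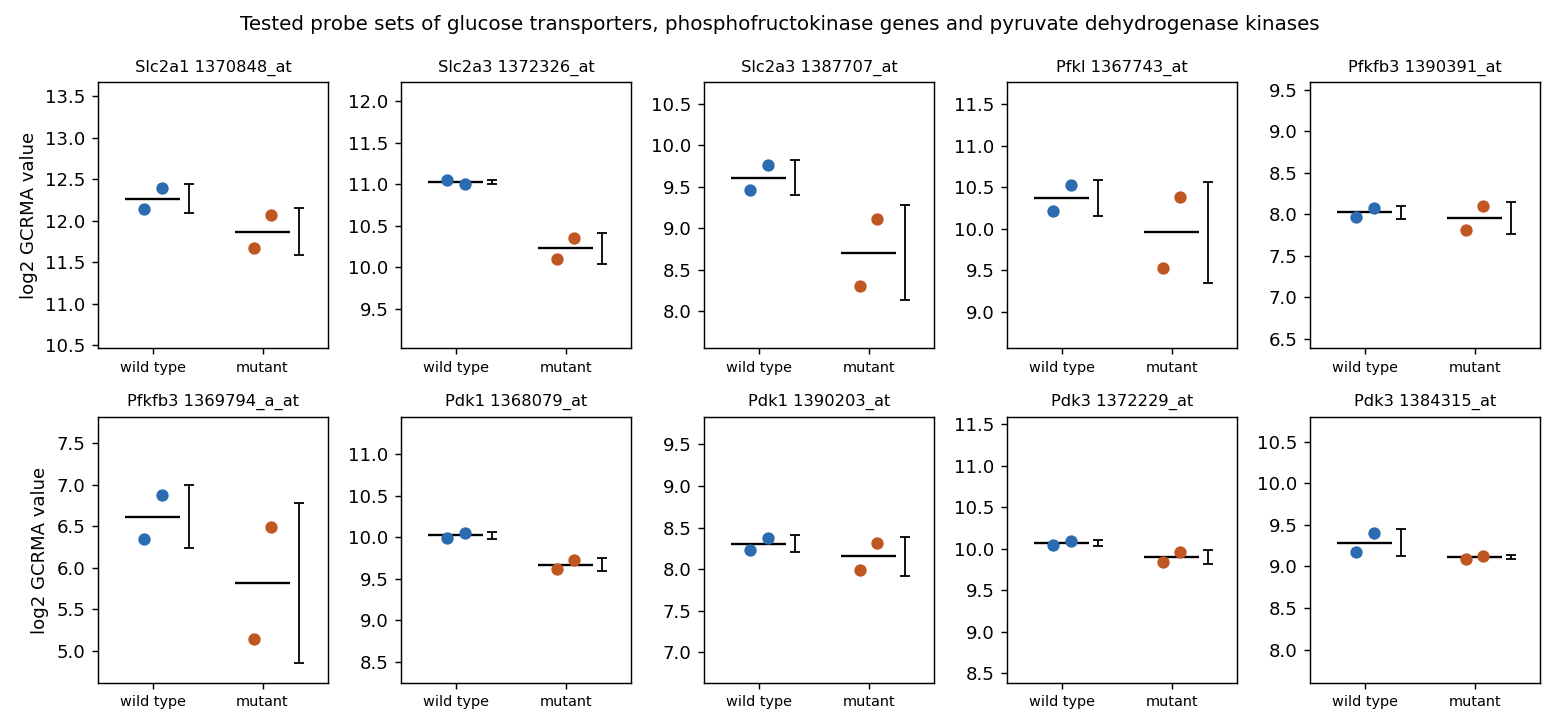
Log2 value of each array for all tested probe sets of Slc2a1, Slc2a3, Pfkl, Pfkfb3, Pdk1 and Pdk3, wild type in blue and mutant in orange, with the mean (line) and SD (bar, n = 2); all panels span the same range of log2 units. Slc2a3 is lower on both of its probe sets, while Pfkl and the dimmer Pfkfb3 probe set owe their lower mean to 1 mutant array.

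HIF-1 acts through hypoxia response elements, whose core is ACGTG or GCGTG. The 250 bases before the transcription start were read from RefSeq promoter windows (rat build GRCr8) for 33 of the 38 genes, and Slc2a3, Pgk1, Bnip3l, Ndrg1 and Ero1a had no entry. A core on either strand was present for 24 of the 33 genes (72.7%), counting any window of a gene, against 39.6% of all 27457 genes in the table. The palindrome CACGTG, which holds the core on both strands, was present for 5 of 33 (15.2%) against 6.18%. Of the 11 genes with a window and both mutant arrays below both wild-type arrays, 10 held a core, and of the other 19 tested genes 13 did. A match is a string of letters in this window and does not show binding. The set was picked to include known HIF-1 targets, and the comparison genes were not matched for base composition or expression. Any part of HIF-1 in the differences between the genotypes was not tested. Shown here are the windows of 4 genes, each 5′ to 3′ on the gene's strand and ending at the base before the start, with core matches in capitals. All 4 are genes with both mutant arrays below both wild-type arrays, and they were chosen after their values were seen: Slc2a1, Pdk1 and P4ha2 with differences of at least 0.3 in size, and Ldha as a textbook HIF-1 target.

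Slc2a1 (chr5:138002272-138002521, plus strand): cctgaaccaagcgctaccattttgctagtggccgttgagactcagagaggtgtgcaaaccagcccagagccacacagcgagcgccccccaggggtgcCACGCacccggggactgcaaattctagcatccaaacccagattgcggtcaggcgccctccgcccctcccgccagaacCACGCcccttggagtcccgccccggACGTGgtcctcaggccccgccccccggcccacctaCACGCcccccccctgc

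Pdk1 (chr3:77113264-77113513, plus strand): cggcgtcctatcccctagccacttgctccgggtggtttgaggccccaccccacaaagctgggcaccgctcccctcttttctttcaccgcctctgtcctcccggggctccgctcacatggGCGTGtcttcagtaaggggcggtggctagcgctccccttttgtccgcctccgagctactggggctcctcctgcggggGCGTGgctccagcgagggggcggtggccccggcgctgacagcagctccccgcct

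P4ha2 (chr10:38743644-38743893, plus strand): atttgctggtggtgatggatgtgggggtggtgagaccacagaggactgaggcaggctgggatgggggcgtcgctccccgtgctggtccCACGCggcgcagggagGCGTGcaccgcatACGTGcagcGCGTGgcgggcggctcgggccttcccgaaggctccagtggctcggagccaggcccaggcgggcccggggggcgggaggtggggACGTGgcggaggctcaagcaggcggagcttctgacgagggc

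Ldha (chr1:106507842-106508091, plus strand): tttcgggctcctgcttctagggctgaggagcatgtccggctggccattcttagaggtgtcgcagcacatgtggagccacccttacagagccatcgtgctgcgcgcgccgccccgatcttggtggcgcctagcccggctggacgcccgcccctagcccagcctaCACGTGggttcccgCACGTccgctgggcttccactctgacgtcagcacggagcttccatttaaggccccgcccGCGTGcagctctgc

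The Slc2a1 window held 4 cores, of which the nearest began 16 bases before the start. The Pdk1 window held 2, both GCGTG on the gene's strand, at 131 and 54 bases before the start. The P4ha2 window held 5. The Ldha window held 4 as well, among them both strands of a CACGTG. Neither window of Vegfa nor the window of Adm, both higher in the mutant, held a core. The windows of Tpi1 and Slc16a3, both lower in the mutant, held 0 as well. Among higher genes, the Slc16a1 window held 3, with both strands of a CACGTG, and the Eno2 window held 1. These genes are examples, and the counts above cover all genes with a window. Sequence further upstream was not read.

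The hypoxia targets outside glycolysis had differences in both directions. Of 13 tested, 9 were lower and 4 higher (median -0.11), and 3 lay below wild type on both mutant arrays, against 12.1% of all tested genes. The median was -0.034 when mutant replicate 1 was left out and -0.050 when wild-type replicate 2 was. Vegfa, the growth factor that draws vessels into the neural tube, read 8.50 and 8.64 in wild type and 8.63 and 8.72 in the mutant, differing by 0.10 (SE 0.09). A dimmer Vegfa probe set gave 0.19 (SE 0.25). Adm, the vessel-acting peptide adrenomedullin, was faint, at 4.24 and 4.07 against 4.33 and 4.24, and differed by 0.13 (SE 0.10).

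Egln1, the main prolyl hydroxylase, differed by -0.12 (SE 0.12). Egln3, an inducible one, was faint at 4.22 and 3.61 in wild type and 4.03 and 3.84 in the mutant and differed by 0.02 (SE 0.26), with an interval from -0.76 to 0.80. Bnip3, a mitophagy receptor, read 10.24 and 10.40 against 10.22 and 10.05 and differed by -0.18 (SE 0.11). Its relative Bnip3l, which also clears mitochondria from maturing red cells, differed by -0.18 (SE 0.16), and by -0.15 (SE 0.07) on a second probe set. Any part of the red cells in the Bnip3l values was not tested. Ddit4, an inhibitor of mTORC1, differed by -0.25 (SE 0.18), or by -0.04 without wild-type replicate 2.

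P4ha2 and P4ha1 encode subunits of the collagen prolyl hydroxylase. P4ha2 read 6.96 and 7.18 in wild type and 6.65 and 6.88 in the mutant, lower on both mutant arrays by -0.31 (SE 0.14, interval -0.74 to 0.12). It was -0.20 without mutant replicate 1 or without wild-type replicate 2. P4ha1 overlapped and differed by -0.11 (SE 0.18). Ankrd37, a small HIF-1 target, read 5.99 and 5.99 against 5.67 and 5.84 and differed by -0.23 (SE 0.10). Ero1a, an oxidase of the endoplasmic reticulum, differed by 0.15 (SE 0.19) and by -0.01 on a dimmer probe set. Mif, a cytokine, differed by -0.08 (SE 0.12). Ndrg1, a stress-response gene, sat at 3.20 on 3 of the 4 arrays and at 3.27 on wild-type replicate 1, so it gives no usable difference. At -0.03 it is still included in the counts of lower genes above.

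The arrays resolved the pathway unevenly. The 95% interval lay within a 1.5-fold change in both directions for 18 of the 35 genes, where 60.1% of all tested genes had one as narrow. For 15 genes it reached a decrease of more than 1.5-fold, and for 6 an increase of more than 1.5-fold. Where a gene had several tested probe sets, they gave the same direction for 7 of 9 genes and opposite directions for Pfkm and Ero1a.

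Neighbouring pathways were read from lists of their genes. Of 31 other tested hypoxia targets, 24 were lower and 7 higher. Their median was -0.12, or -0.031 when mutant replicate 1 was left out and -0.035 when wild-type replicate 2 was. Of these, 6 lay below and 2 above wild type on both mutant arrays, against 12.1% and 12.2% of all tested genes. The histone demethylase Kdm3a read 10.62 and 10.71 in wild type and 10.42 and 10.20 in the mutant, differing by -0.35 (SE 0.11), and Ets1, a factor of endothelium, differed by 0.27 (SE 0.07). Neither passed (limma adjusted p = 1). Of 16 regulators of the HIF pathway, 9 were lower and 7 higher (median -0.02), but 5 were lower with a median of 0.085 when mutant replicate 1 was left out and 5 with 0.048 when wild-type replicate 2 was. Hif1a, the regulated subunit, read 12.87 and 12.88 against 12.91 and 12.65 and differed by -0.09 (SE 0.12). Epas1, the HIF-2 subunit of endothelium, read 8.36 and 8.64 in wild type and 8.83 and 9.27 in the mutant. It differed by 0.55 (SE 0.22). Most endothelial markers were higher in the mutant too, and any part of endothelium in the Epas1 values was not tested. The partner subunit Arnt differed by -0.05 and the ubiquitin ligase subunit Vhl by -0.06.

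Pyruvate oxidation had 10 of 12 genes lower and a median of -0.11, with Pdp1 and the malic enzyme Me1 (-0.38, SE 0.10) at an unadjusted p under 0.05. Pdha1 and Pdhb, subunits of pyruvate dehydrogenase, differed by -0.29 (SE 0.17) and -0.20 (SE 0.17). In the tricarboxylic acid cycle 8 of 16 were lower and 8 higher (median -0.03), and Sucla2, a subunit of succinyl-CoA synthetase, differed by -0.25 (SE 0.08). The pentose phosphate pathway, which branches off at glucose 6-phosphate, had 3 of 7 lower and a median of 0.01. Other isozymes and side branches of glycolysis had 4 of 14 lower and a median of 0.05. Reference genes such as Tbp, Hprt1 and Rplp0, 9 of them tested, had 3 lower and a median of 0.02. None of these genes passed over all probe sets (limma adjusted p = 1).

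**Figure D4:**
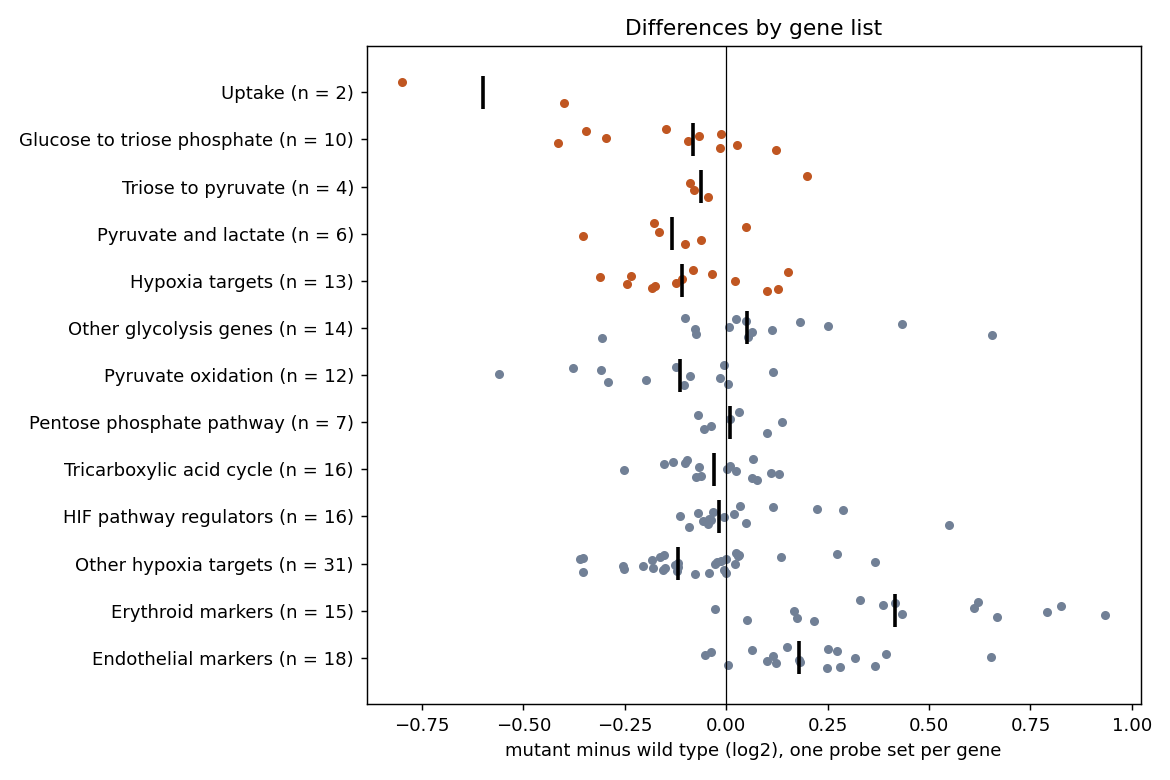
Difference between Pax6 mutant and wild type (log2 units) of every tested gene, by list, with the list's median as a black line; orange marks the glycolysis and hypoxia genes and grey the neighbouring pathways and blood or vessel markers. The median of the uptake genes is the lowest at -0.60, those of the 4 other orange groups lie between -0.13 and -0.06 with all arrays in, and those of the erythroid and endothelial markers are 0.42 and 0.18.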

How the data were processed

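The deposited log2 values, 1 per probe set and array, come from GCRMA as run by the authors (background from probe sequence, then normalization between arrays), per the submitters' processing notes; its version is not given in the sources used here. That they are log2 follows from their range, 2.07 to 16.13. Arrays give no read depth, and their number limits the precision. The values were not normalized again.

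Symbols came from the platform annotation; the RefSeq gene table (GRCr8) changed 0 of them. Of 31042 probe sets without controls, 12417 with a mean under the 40th percentile (3.21) were left out as dim. limma 3.58.1 in R 4.3.3 (lmFit, eBayes) fitted genotype alone, n = 2 arrays each, with Benjamini-Hochberg adjustment over 18625 probe sets. SE and interval are the moderated ones. The procedure was run on simulated data with the same scatter for every probe set. Scatter differs between probe sets in the real data, so that run gives no power or error rate for them. A gene is represented by its tested probe set with the highest mean. Marker sums use linear values.

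All genes of the set are named; values per array are given where the unadjusted p was under 0.05 or the difference at least 0.5, for the brightest probe set of each step, and for a few more for comparison. From other lists, up to 3 genes per list with an unadjusted p under 0.05 were eligible, plus well-known genes chosen after their values were seen. The genes and lists were chosen with earlier results of these data known. Alternatives covered filters, normalization, pseudocount, variance model, the replicate number and leaving out arrays.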

Additional observations from a re-analysis of the deposited data

How the results depend on the processing

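No gene of the set passed the threshold under any alternative run (lowest adjusted p 0.597, Slc2a3 with median centring, limma), and 24 of its 44 tested probe sets kept their direction throughout, 21 lower and 3 higher; 1 more, Ndrg1, had a difference of 0 without wild-type replicate 1. Over all probe sets the stricter filter called 1, and quantile normalization, median centring and leaving out 249 probe sets of zero variance called 2 each, none from the set. Genes lower without overlap numbered 12 to 15 with all arrays (9 of 28 under the stricter filter) and 14 to 23 with 1 array left out, where separation is easier by construction. Those higher without overlap numbered 0 with the stricter filter, 2 with median centring and 3 to 10 with 1 array left out. The median of the set was between -0.19 and -0.042 with 1 array left out, with 21 to 30 genes lower. With 1 array left out, the differences of 19 probe sets spanned 0: Hk1 -0.086 to 0.33, Hk2 -0.40 to 0.37, Gpi -0.081 to 0.13, Pfkl -0.85 to 0.016, Pfkm -0.20 to 0.010 and -0.20 to 0.36, Pfkp -0.63 to 0.040, Pfkfb3 (brighter) -0.21 to 0.072, Aldoa -0.22 to 0.19, Pgk1 -0.13 to 0.039, Ldhb -0.24 to 0.12, Pdk1 (dimmer) -0.32 to 0.013, Slc16a1 -0.026 to 0.12, Vegfa (dimmer) -0.095 to 0.48, Egln3 -0.28 to 0.32, P4ha1 -0.31 to 0.094, Ero1a -0.050 to 0.36 and -0.073 to 0.052, and Mif -0.20 to 0.034. The dimmer Ero1a probe set also turned to 0.0059 with quantile normalization. Medians that spanned 0 with 1 array left out were those of upper glycolysis (-0.21 to 0.044), other glycolysis isozymes (-0.0075 to 0.080), the pentose phosphate pathway (-0.042 to 0.043), HIF regulators (-0.042 to 0.085), the tricarboxylic acid cycle (-0.061 to 0.012), reference genes (-0.050 to 0.033) and the markers of mesenchyme (-0.22 to 0.058), telencephalic progenitors (-0.050 to 0.12) and neurons (-0.089 to 0.11). The cause was not tested. The replicate number as a block (replicate block) left 0 genes of the set past the threshold. At an unadjusted p under 0.05 (limma) there were 5. The share of all tested genes at that level is not given for this model, so the 5 have no background here. The median was -0.09, and the model has 1 residual degree of freedom. The replicate 2 minus 1 differences of the genotypes correlated at r = 0.43 across probe sets, which are not independent. Replicate 2 was above replicate 1 in both genotypes for 22 of the 35 genes, against 43.4% of all tested genes.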
